A study of Mus musculus with 21 samples.

Results

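The genes described here are the matrix metalloproteinases Mmp2, Mmp3, Mmp8, Mmp9, Mmp10, Mmp12, Mmp13, Mmp14 and Mmp19 and their inhibitor Timp1. They were taken by gene symbol as a family, and all 10 were among the 23420 symbols of the count table. Their RNA was measured by bulk RNA-Seq in inflammatory monocytes (IMs), which had been enriched with an isolation kit and sorted as CD45+CD11b+Ly6C-high, Ly6G- cells, with Siglec-F+ cells, that is, alveolar macrophages and eosinophils, gated out. Tumor-infiltrating IMs (TIMs) came from mice carrying lines of lung squamous cell carcinoma (LUSC), and BM IMs came from the bone marrow of healthy mice.

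The FVB arm held BM IMs of healthy FVB mice (n = 3), TIMs from lung primary tumors (n = 5) and TIMs from lymph node (LN) metastases (n = 5). Its tumor-bearing FVB mice had received KAL-LN2-E1 cells (LN2E1, a line selected from the KAL LUSC line) by injection into the lung, with 500000 cells per mouse. The DBA2 arm held BM IMs of healthy DBA2 mice (n = 3) and TIMs from lungs (n = 5) after intravenous injection of 300000 LN4K1 cells, a line derived from KLN-205. Each arm had therefore 1 tumor line in 1 strain with 1 route, so strain, line and route cannot be told apart, and within each arm tumor and healthy animal, and tissue digested with collagenase and marrow, cannot be told apart either. The methods call the replicates technical, and nothing in the labels ties a library to an animal, so p-values measure the spread between these libraries only. The 21 libraries held 80772922 to 101043568 counts each. Genes with at least 10 counts numbered 11047 in LN replicate 1, the fewest of all, against 12433 to 12828 in the other LN libraries. They numbered 12015 in LN4K1 lung replicate 3, against 13272 to 13695 in the others of its group. All 9 markers of monocytes and of the sort gates that were fixed as a list were present in every group. Their summed level was 41374.5 to 126641 CPM (counts scaled by library depth), mostly Lyz2 (group medians 30812 to 69699 CPM). Of the 9, 6 rose and 3 fell in primary tumor TIMs, 5 rose and 3 fell in LN TIMs and 5 rose and 2 fell in LN4K1 lung TIMs. Genes of the Ly6C gate, Ly6c1 and Ly6c2, had lower medians in TIMs than in marrow. Ly6c2 stood at 3035 CPM in FVB BM IMs, 1267 in primary tumor TIMs and 1466 in LN TIMs. It stood at 2512 CPM in DBA2 BM IMs and 1525 in LN4K1 lung TIMs. Ptprc (CD45) and Itgam (CD11b) had higher medians in TIMs. In bulk RNA, fewer cells of a type and less RNA per cell cannot be told apart.

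Matrix metalloproteinases are zinc-dependent enzymes that cut proteins of the extracellular matrix. They are made as inactive proenzymes, are activated by proteolysis, and are held in check by the tissue inhibitors of metalloproteinases (TIMPs), which bind the active site. Myeloid cells and fibroblasts are both known sources. Neutrophil collagenase (MMP8) and gelatinase B (MMP9) are stored in granules of neutrophils, macrophage elastase (MMP12) is known from macrophages, and stromelysins and interstitial collagenases are typical products of activated stromal cells.

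The genes Mmp13, Mmp12, Mmp3, Mmp10 and Mmp8, lay in 1 cluster on chromosome 9, in that order (GRCm38, all on the + strand). With 5 further metalloproteinase genes, the cluster spanned 427 kb, from 7272514 to 7699585. Mmp13 occupied 7272514 to 7283331, Mmp12 7344381 to 7369499, Mmp3 7445822 to 7455975, Mmp10 7502352 to 7510240 and Mmp8 7558456 to 7568485. Outside it, Mmp2 lay on chromosome 8 (92827291 to 92853420), Mmp9 on chromosome 2 (164940780 to 164955850), Mmp14 on chromosome 14 (54431612 to 54445364), Mmp19 on chromosome 10 (128790910 to 128800824) and Timp1 on chromosome X (20870166 to 20874735). Exons of Mmp12 overlapped those of Mmp1b on the opposite strand, and exons of Mmp19 overlapped those of Gm47093 and Tmem198b. The libraries carry no strand, so reads in these overlaps cannot be assigned to either gene.

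Promoter sequences are shown for members with no or almost no counts in marrow (Mmp3, Mmp10 and Mmp13), for Mmp8, the member most abundant in marrow, and for Mmp14 and Timp1, which rose in all 3 TIM groups. RefSeq promoters (GRCm38.p6) were matched for 7 members, with 2 for Mmp12. Those of Mmp2, Mmp9 and Mmp19 were not matched. The 120 bases upstream of the start are printed 5′ to 3′, from chr9:7445702-7445821 for Mmp3, chr9:7502222-7502341 for Mmp10, chr9:7272394-7272513 for Mmp13, chr9:7558309-7558428 for Mmp8, chr14:54431478-54431597 for Mmp14 and chrX:20870046-20870165 for Timp1, all on the + strand. Capitals mark matches to TGANTCA, the site of AP-1, a factor made of Fos and Jun proteins, and to TATAAA, the TATA box.
Mmp3: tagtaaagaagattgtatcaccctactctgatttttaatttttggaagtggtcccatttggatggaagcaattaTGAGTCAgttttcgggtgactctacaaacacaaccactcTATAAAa
Mmp10: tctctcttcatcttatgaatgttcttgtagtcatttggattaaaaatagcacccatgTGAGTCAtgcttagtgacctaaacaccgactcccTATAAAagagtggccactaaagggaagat
Mmp13: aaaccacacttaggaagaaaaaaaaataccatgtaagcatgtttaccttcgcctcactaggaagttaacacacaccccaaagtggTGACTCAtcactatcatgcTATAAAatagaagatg
Mmp8: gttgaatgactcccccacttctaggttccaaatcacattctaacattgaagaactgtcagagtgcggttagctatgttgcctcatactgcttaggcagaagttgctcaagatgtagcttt
Mmp14: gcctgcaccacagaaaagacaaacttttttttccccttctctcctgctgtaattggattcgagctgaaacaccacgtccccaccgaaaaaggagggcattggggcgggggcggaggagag
Timp1: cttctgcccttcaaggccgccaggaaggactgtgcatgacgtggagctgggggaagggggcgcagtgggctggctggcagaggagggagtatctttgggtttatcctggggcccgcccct

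In the 250 bases upstream, on both strands, TGANTCA was found in the first-listed promoters of Mmp3, Mmp10 and Mmp13, 3 of the 7 matched members, and in 6.87% of 27025 RefSeq promoters. It began 46 bases upstream of the start in Mmp3, 63 in Mmp10 and 35 in Mmp13. The same 3 promoters held TATAAA, which 13.0% of all promoters held. The second promoter of Mmp12 held TGAGTCA 44 bases upstream, and its first held none of these letters. The promoters of Mmp14 and Timp1 held neither motif but did hold GGGCGG, the GC box bound by Sp factors, on either strand, as did 32.9% of all promoters. That of Mmp8 held none of the 3 motifs. The matches describe letters only, and binding was not measured.

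By the group means, TIMs of LN2E1 primary tumors stood highest for 8 of the 10 members, whereas Mmp8 was highest in LN4K1 lung TIMs and Mmp19 in LN TIMs, where it overlapped with primary tumor TIMs. Of the 10 members, 9 rose in primary tumor TIMs over FVB BM IMs, that is, were higher at an adjusted p under 0.05 (edgeR quasi-likelihood test, Benjamini-Hochberg over all genes tested), where 33.3% of the 14569 genes tested rose. Of these, 8 passed the study's thresholds for a differentially expressed gene (DEG, an adjusted p under 0.0001 with a log2 fold change beyond 1 in size), against 7.72% of genes that passed and were higher. Without FVB BM replicate 1 the DEGs numbered 3, and without FVB BM replicate 2 they numbered 5. Mmp9 was the member that did not pass. Mmp3, Mmp10 and Mmp13 had 0 counts in FVB marrow, so in comparisons with it they could only rise. In LN TIMs 5 of the 8 members tested rose over FVB BM IMs (20.2% of 13273 genes), and 2 were DEGs (4.01% of genes). In LN4K1 lung TIMs 6 of 9 rose over DBA2 BM IMs (13.9% of 13624 genes), and 2 were DEGs (1.21%). Members that were not tested had too few counts for the filter. In these comparisons the median log2 change over all genes tested lay between -0.04 and 0.08. No member fell against marrow in these fits, where 28.6%, 17.2% and 11% of genes fell, although Mmp9 fell in LN4K1 lung TIMs under DESeq2. All TIM libraries lay above all marrow libraries for 9 members in primary tumors (30.7% of genes), 5 in LN (20.1%) and 6 in the LN4K1 lung (19.9%). The 2 comparisons of LN2E1 TIMs share their 3 marrow libraries.

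**Figure D1:**
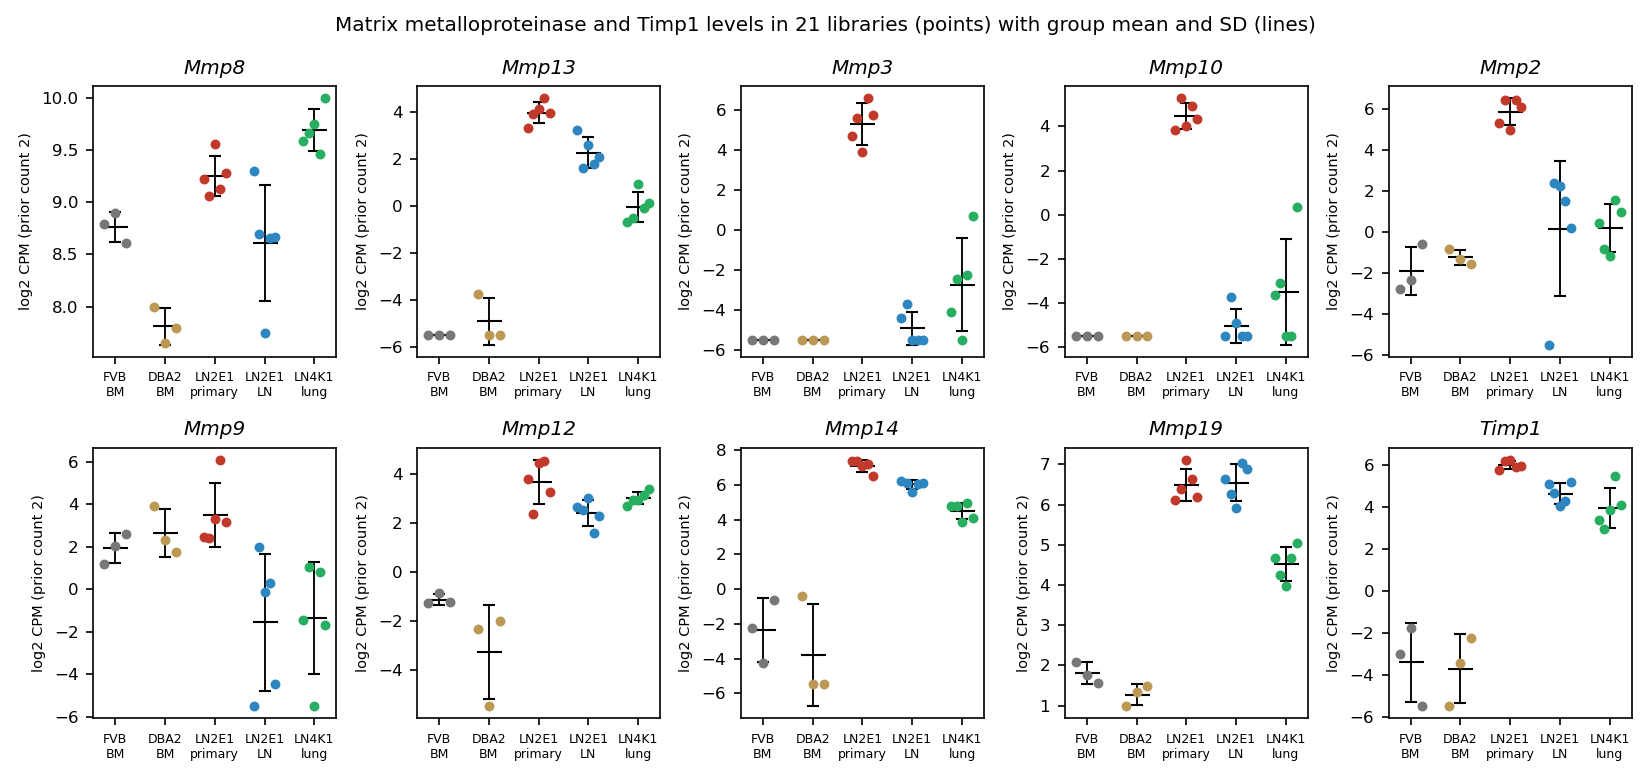
Levels of the 10 genes in 21 libraries, 1 panel per gene, as log2 CPM with a prior count of 2 on each y axis, whose range differs between panels. Points are libraries, colored by the 5 groups on the x axis, and lines are the group mean and SD. Mmp3 and Mmp10 sit at the lowest value in all 6 marrow libraries and are high in the 5 primary tumor libraries alone, while Mmp8 is high throughout.

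Mmp3 and Mmp10 encode stromelysin-1 and stromelysin-2, which cut proteoglycans, laminin and fibronectin and activate procollagenases. Both had 0 counts in all 6 marrow libraries. In primary tumor TIMs, Mmp3 stood at 25.2, 47.1, 14.8, 94.3 and 52.9 CPM in replicates 1 to 5. In LN TIMs it had 2, 4, 0, 0 and 0 counts, and in LN4K1 lung TIMs 3, 15, 0, 18 and 140 counts, the last being 1.56 CPM. Every primary tumor library was thus above every other library. Taking 3 counts per library as the floor, which was 0.0268 to 0.0405 CPM, Mmp3 was at least 1537-fold higher in primary tumor TIMs than in FVB BM IMs, with an adjusted p of 9.23e-05 (edgeR). A fitted fold change has no fixed size where the marrow is at 0, and none is given.

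Mmp10 had the same layout, at 14.5, 38.7, 16.2, 30.2 and 20.4 CPM in primary tumor TIMs. It had 0, 4, 1, 0 and 0 counts in LN TIMs and 5, 9, 0, 0 and 113 counts in LN4K1 lung TIMs. It was at least 788-fold higher in primary tumor TIMs than in FVB BM IMs, with an adjusted p of 7.41e-06 (edgeR). Against LN TIMs the pooled primary tumor counts were higher by a ratio of 1958 for Mmp10 (95% exact counting interval 839 to 6032) and 3195 for Mmp3 (1467 to 8706). These intervals cover counting error only. Both genes fell in LN TIMs against primary tumor TIMs, with adjusted p = 5.63e-05 for Mmp10 and 8.23e-05 for Mmp3 (edgeR). They were 2 of the 4 genes that fell as DEGs among the 13488 genes tested in that comparison (0.0297% of genes), and leaving out any 1 library left 0 to 1 members past the DEG thresholds.

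In LN4K1 lung TIMs, 113 of the Mmp10 counts and 140 of the Mmp3 counts came from replicate 5. Mmp3 was at least 12.6-fold higher than in DBA2 BM IMs by the group mean, and its test did not pass (adjusted p = 0.0715, edgeR). It passed without lung replicate 3, which had 0 counts (adjusted p = 0.0216), and under DESeq2 (adjusted p = 0.0049). Mmp10 was at least 9.18-fold higher by the group mean and did not pass the filter for testing.

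Mmp2 encodes gelatinase A, which cuts denatured collagen and type IV collagen and is activated at the cell surface by MT1-MMP with TIMP2. Its level was 0.125, 0.173 and 0.652 CPM in FVB BM IMs and 0.544, 0.379 and 0.317 CPM in DBA2 BM IMs. Primary tumor TIMs held 40.5, 86.2, 31.9, 87.6 and 68.5 CPM, all above every other library. LN TIMs held 0, 5.17, 4.79, 2.85 and 1.12 CPM, and LN4K1 lung TIMs 1.36, 0.538, 0.419, 2.9 and 1.93 CPM, which overlapped with each other and, at their lower ends, with marrow. Mmp2 rose in primary tumor TIMs by a log2 fold change of 7.55 (SE 0.69, adjusted p = 1.94e-05, edgeR). The SE here and below is the fold change divided by the square root of its F value, an approximation.

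The log2 fold change of Mmp2 was 3.12 in LN TIMs (SE 1.58, adjusted p = 0.155) and 1.71 in LN4K1 lung TIMs (SE 0.74, adjusted p = 0.125), and neither passed (edgeR). Without LN replicate 1, the library at 0 and the one with the fewest genes of at least 10 counts, the LN value was 3.44. It passed then (adjusted p = 0.00898), as it did under DESeq2 with all libraries (adjusted p = 0.0444). Without lung replicate 3, the lung value was 1.94 and passed (adjusted p = 0.0321). Between the tumor sites, Mmp2 fell in LN TIMs against primary tumor TIMs by 4.49 on the log2 scale (SE 0.87, adjusted p = 0.00735, edgeR).

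Markers of fibroblasts were highest in primary tumor TIMs, as were Mmp2, Mmp3 and Mmp10. Mmp13, Mmp14 and Timp1 likewise had every primary tumor library above every other library. The summed level of 9 fibroblast genes (Col1a1, Col1a2, Col3a1, Dcn, Lum, Pdgfra, Pdgfrb, Postn and Fap) was 557, 1079.8, 383, 1140.3 and 716 CPM in primary tumor replicates 1 to 5, in the same order of libraries as Mmp2 but not as Mmp3 or Mmp10. It was 12.2 to 108 CPM in LN TIMs and 1.81 to 43.3 CPM in LN4K1 lung TIMs, where replicate 5, highest in Mmp3 and Mmp10, was also highest. Between LN and LN4K1 lung TIMs the order was the opposite for Mmp3 and Mmp10, since LN replicate 2, at 108 CPM of these markers, had 4 counts of each gene. It was 5.26 to 9.16 CPM in FVB BM IMs, with Lum, Pdgfra and Postn at 0, and 0.0898 to 2.05 CPM in DBA2 BM IMs, with Lum at 0. In primary tumor TIMs 8 of 8 fibroblast markers tested rose against FVB marrow, and in LN TIMs 5 of 5 rose. All but Pdgfrb had medians of at most 0.0102 CPM in FVB marrow, so a fall there could hardly be called. In LN4K1 lung TIMs 2 of 6 rose against DBA2 marrow, while 6 of 8 fell in LN TIMs against primary tumor TIMs.

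The 9 markers of squamous epithelium and tumor cells summed to 14.3 to 43 CPM in primary tumor TIMs and 0.331 to 4.87 CPM in LN TIMs. They summed to 0.162 to 83.5 CPM in LN4K1 lung TIMs, where all but replicate 3 held at least 42.7 CPM, and 0.341 to 1.08 CPM in marrow of both strains. Of those tested, 3 of 3 rose in primary tumor TIMs, 1 of 2 in LN TIMs and 2 of 4 in LN4K1 lung TIMs. The sum came mostly from Krt8, Krt18 and Epcam, which simple epithelium also expresses. Dsg3, a desmoglein of squamous epithelium, was at 0 in every group. The squamous genes Krt5, Krt14, Krt6a, Krt17 and Trp63 had medians of 0 to 0.012 CPM in primary tumor TIMs. Krt14 reached 2.49 CPM there and had a median of 0.222 CPM in LN4K1 lung TIMs. The part of the fibroblast and epithelial RNA in the levels of Mmp2, Mmp3, Mmp10, Mmp13, Mmp14 and Timp1 was not tested.

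**Figure D2:**
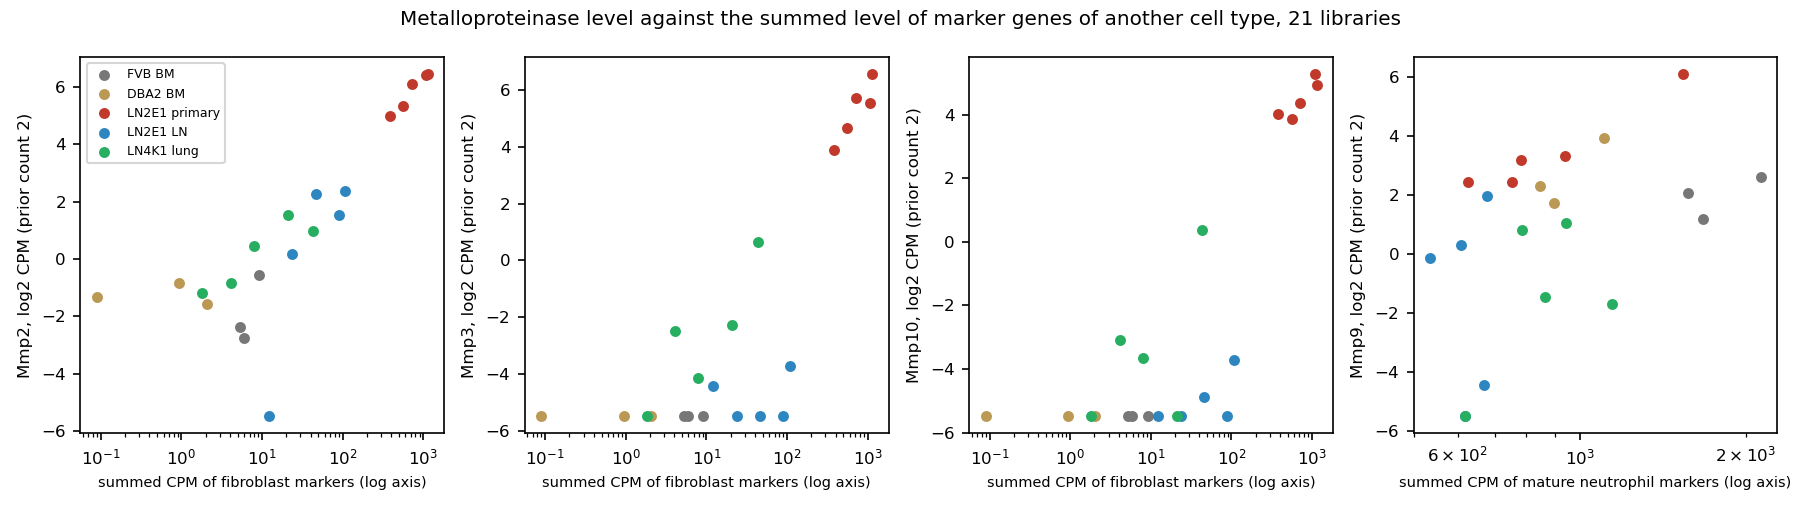
Each panel plots 1 gene, as log2 CPM with a prior count of 2 on the y axis, against the summed CPM of marker genes of another cell type on a log x axis, with 1 point for each of 21 libraries colored by group. The 5 primary tumor libraries lie highest on both axes for Mmp2, Mmp3 and Mmp10 against fibroblast markers, and in the Mmp9 panel the primary tumor library at 1537 CPM of mature neutrophil markers is the highest in Mmp9.

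Mmp13 encodes collagenase-3, which cuts fibrillar collagen and is the main interstitial collagenase of rodents. It had 0 counts in the 3 FVB BM libraries, and in DBA2 BM IMs 5 counts in replicate 1 and 0 in the others. Levels were 9.92, 15.2, 17.6, 24.2 and 15.7 CPM in primary tumor TIMs. They were 9.46, 3.06, 6.11, 3.45 and 4.24 CPM in LN TIMs, and 0.603, 0.686, 1.9, 0.931 and 1.08 CPM in LN4K1 lung TIMs. The 3 TIM groups did not overlap with each other, and all 15 TIM libraries lay above all marrow libraries. Mmp13 was at least 542-fold higher in primary tumor TIMs and at least 173-fold higher in LN TIMs than in FVB BM IMs (adjusted p = 2.44e-06 and 0.000113, edgeR).

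In LN4K1 lung TIMs the ratio of pooled Mmp13 counts to those of DBA2 marrow was 58.9 (95% exact counting interval 25.1 to 182), and the gene rose with an adjusted p of 0.0111 (edgeR). The DBA2 counts of Mmp13 all came from replicate 1, and without it that marrow was at 0. Mmp13 fell by 1.64 on the log2 scale from primary tumor to LN TIMs (SE 0.34, adjusted p = 0.0105, edgeR). Primary tumor TIMs had a group mean of 16.5 ± 5.16 CPM, and that of LN TIMs was 5.26 ± 2.62 CPM (SD, n = 5 each).

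Mmp8, neutrophil collagenase, was the most abundant member in every group, both in CPM and per kb of exon, with all annotated exons of a gene counted. Its mean level per kb of exon was 180 CPM in FVB BM IMs, 93.2 in DBA2 BM IMs, 253 in primary tumor TIMs, 170 in LN TIMs and 344 in LN4K1 lung TIMs. In CPM, the FVB marrow libraries held 443, 476 and 391 and the DBA2 marrow libraries 256, 201 and 222. Primary tumor TIMs held 596, 534, 754, 558 and 622 CPM, LN TIMs 629, 414, 214, 403 and 407 CPM, and LN4K1 lung TIMs 767, 808, 863, 707 and 1021 CPM. The tumor groups lay above their marrow in both lungs, while the LN libraries lay on either side of FVB marrow.

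The change of Mmp8 was small beside those of the other members that rose. It rose by a log2 fold change of 1.8 in LN4K1 lung TIMs (SE 0.15, adjusted p = 2.91e-05, a DEG) and by 0.47 in primary tumor TIMs (SE 0.13, adjusted p = 0.00878), and its value in LN TIMs was -0.08 (SE 0.27, adjusted p = 0.855, edgeR). When all 5 groups shared 1 fit, the primary tumor value no longer passed (0.49, adjusted p = 0.0751). Mmp8 was also the member that differed between the marrows, with a log2 difference of -0.92 of DBA2 from FVB (SE 0.12, adjusted p = 0.00161, edgeR), where 9.57% of 12905 genes fell. The other 5 members tested between the marrows did not pass, although Mmp12 and Mmp19, like Mmp8, had all DBA2 libraries below all FVB libraries (21.5% of genes did).

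Mmp9 encodes gelatinase B. It stood at 2.25, 4.14 and 6.04 CPM in FVB BM IMs and at 15.1, 4.99 and 3.32 CPM in DBA2 BM IMs. Primary tumor TIMs held 5.47, 5.37, 9.99, 68.5 and 9.08 CPM, LN TIMs 0, 3.93, 0.891, 1.22 and 0.0238 CPM, and LN4K1 lung TIMs 0.348, 2.06, 0, 1.75 and 0.29 CPM. Replicate 4 carried most of the primary tumor signal, and primary tumor and LN libraries overlapped with FVB marrow. The LN4K1 lung libraries all lay below the DBA2 marrow libraries, as for 14.9% of genes.

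No test of Mmp9 against marrow passed (edgeR). The log2 fold change was 2.22 in primary tumor TIMs (SE 0.95, adjusted p = 0.069), -1.78 in LN TIMs (SE 1.44, adjusted p = 0.376) and -3.20 in LN4K1 lung TIMs (SE 1.11, adjusted p = 0.0637). Without primary tumor replicate 4 the first of these was 0.83 (adjusted p = 0.0977), and without replicate 1 or 2 it passed (adjusted p = 0.0432 and 0.0482). Without lung replicate 3 the lung value was -2.88 and passed (adjusted p = 0.0169), as it did under DESeq2 (adjusted p = 0.014).

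Mmp8 and Mmp9 are products of neutrophils, whose markers were therefore read beside them. The 7 markers of mature neutrophils summed to 754, 628, 941, 1537 and 783 CPM in primary tumor replicates 1 to 5, so that replicate 4, high in Mmp9, was the highest. The sum was 1569 to 2130.4 CPM in FVB BM IMs, 846 to 1106 in DBA2 BM IMs, 535 to 678 in LN TIMs and 619 to 1145 in LN4K1 lung TIMs, with none of the 7 at 0. Ly6g, also on the list, had no row under that symbol in the count table. Of these markers 3 rose and 2 fell in primary tumor TIMs, 3 rose and 3 fell in LN TIMs, and 1 rose and 2 fell in LN4K1 lung TIMs. By the medians, the largest part of the sum in TIMs was Csf3r. It stood at 547, 430 and 507 CPM in these groups, against 268 in FVB and 341 in DBA2 marrow. S100a9 went the other way, from 674 CPM in FVB marrow to 35.9 in primary tumor and 5.5 in LN TIMs. Its median was 231 CPM in DBA2 marrow and 56.9 in LN4K1 lung TIMs.

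The 8 genes of neutrophil precursors and granules, such as Mpo and Elane, summed to 4185 to 5109 CPM in FVB BM IMs and 2876 to 3519.9 in DBA2 BM IMs. They summed to 50.8 to 197 CPM in primary tumor TIMs, 24.3 to 110 in LN TIMs and 234 to 640 in LN4K1 lung TIMs, and 8, 8 and 7 of the 8 fell. Mmp8 itself rose in primary tumor and LN4K1 lung TIMs. In LN TIMs its test did not pass, and its libraries ran from 214 to 629 CPM, with FVB marrow at 391 to 476 CPM. The part of neutrophil RNA in the levels of Mmp8 and Mmp9 was not tested.

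Mmp12, macrophage elastase, cuts elastin. Its level was 0.386, 0.52 and 0.402 CPM in FVB BM IMs and 0.175, 0 and 0.222 CPM in DBA2 BM IMs. The 5 primary tumor libraries held 13.9, 5.14, 21.9, 22.7 and 9.5 CPM, as against 6.17, 5.7, 8.05, 2.97 and 4.85 CPM in LN TIMs and 6.48, 7.61, 7.59, 8.73 and 10.4 CPM in LN4K1 lung TIMs. All TIM libraries lay above all marrow libraries, and the 3 TIM groups overlapped.

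Mmp12 rose in all 3 comparisons, by log2 fold changes of 5.04 (SE 0.56, adjusted p = 5.21e-05), 3.67 (SE 0.54, adjusted p = 0.000553) and 5.86 (SE 0.82, adjusted p = 0.000773) in primary tumor, LN and LN4K1 lung TIMs (edgeR). From primary tumor to LN TIMs it fell by 1.39 on the log2 scale (SE 0.40, adjusted p = 0.0467, edgeR). That call was narrow: it held for 3 of 10 libraries left out in turn, and the adjusted p then ran from 0.0189 to 0.132.

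Mmp14 encodes MT1-MMP, a membrane-anchored collagenase that activates pro-MMP2. Its level was 0.193, 0.0306 and 0.634 CPM in FVB BM IMs and 0.729, 0 and 0 CPM in DBA2 BM IMs. Primary tumor TIMs held 163, 163, 135, 145 and 90.7 CPM, LN TIMs 75.1, 69.7, 47.9, 67.3 and 69 CPM, and LN4K1 lung TIMs 27.4, 27.2, 14.4, 31.4 and 17.3 CPM. The 5 groups fell into 4 levels without overlap, with both marrows at the bottom. Mmp14 rose by log2 fold changes of 8.84 (SE 0.70, adjusted p = 8.3e-06), 7.80 (SE 0.76, adjusted p = 3.64e-05) and 6.52 (SE 1.24, adjusted p = 0.00427) in primary tumor, LN and LN4K1 lung TIMs (edgeR). From primary tumor to LN TIMs it fell by 1.07 on the log2 scale (SE 0.17, adjusted p = 0.00325, edgeR), a call that did not pass when all 5 groups shared 1 fit (adjusted p = 0.182). DBA2 marrow replicate 1 alone held Mmp14 counts in its group, so without it the size of the lung change has no fixed value, though the call held.

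Mmp19, a secreted enzyme that cuts basement membrane proteins and aggrecan, was present in marrow. It stood at 4.24, 3.38 and 2.93 CPM in FVB BM IMs and at 1.96, 2.52 and 2.78 CPM in DBA2 BM IMs. Primary tumor TIMs held 68.9, 83.9, 139, 100 and 72.6 CPM, LN TIMs 99.6, 77.1, 60.7, 131 and 117 CPM, and LN4K1 lung TIMs 25.4, 19, 15.7, 25.3 and 33.1 CPM. The LN2E1 groups overlapped and lay above LN4K1 lung TIMs, which lay above marrow. Mmp19 was a DEG in all 3 comparisons, with log2 fold changes of 4.71 (SE 0.29, adjusted p = 1.51e-06), 4.79 (SE 0.32, adjusted p = 3.09e-06) and 3.21 (SE 0.29, adjusted p = 4.47e-05, edgeR). Between LN and primary tumor TIMs its log2 difference was 0.08 (SE 0.24, adjusted p = 0.881), the value nearest 0 of the 10 members.

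Timp1, the inhibitor, binds most metalloproteinases of this set and is a weak inhibitor of MMP14 and MMP19. It had 9, 27 and 0 counts in FVB BM IMs and 0, 7 and 18 counts in DBA2 BM IMs. In primary tumor TIMs it reached 54, 71.3, 75.2, 60.3 and 60.7 CPM, as against 33.6, 24.8, 16.4, 19 and 35.6 CPM in LN TIMs and 10.3, 7.59, 14.5, 44.6 and 17 CPM in LN4K1 lung TIMs. Primary tumor libraries lay above all others, while LN and LN4K1 lung libraries overlapped. Timp1 rose by log2 fold changes of 9.0 (SE 0.65, adjusted p = 4.63e-06), 7.69 (SE 0.95, adjusted p = 0.000178) and 7.67 (SE 1.04, adjusted p = 0.000614, edgeR). From primary tumor to LN TIMs it fell by 1.30 on the log2 scale (SE 0.21, adjusted p = 0.00362, edgeR), a call that did not pass when all 5 groups shared 1 fit (adjusted p = 0.0817).

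Per kb of exon, Timp1 had rank 2 of the 10 members in all 3 TIM groups, at a mean of 72.4 CPM per kb in primary tumor TIMs, 29.1 in LN TIMs and 21.2 in LN4K1 lung TIMs. Mmp19 had rank 3, at 26.3, 27.5 and 6.71 CPM per kb. In marrow ranks 2 and 3 were held by Mmp9 (1.17 CPM per kb in FVB and 2.21 in DBA2) and Mmp19 (0.996 and 0.685). In primary tumor TIMs Mmp3 had rank 4, at 26 CPM per kb, next to Mmp19, and in LN TIMs rank 9, at 0.00857 CPM per kb. The ranks depend on exon length: in CPM, Mmp14 and Mmp19 had higher means than Timp1 in all 3 TIM groups. In primary tumor TIMs these means were 139, 92.9 and 64.3 CPM.

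**Figure D3:**
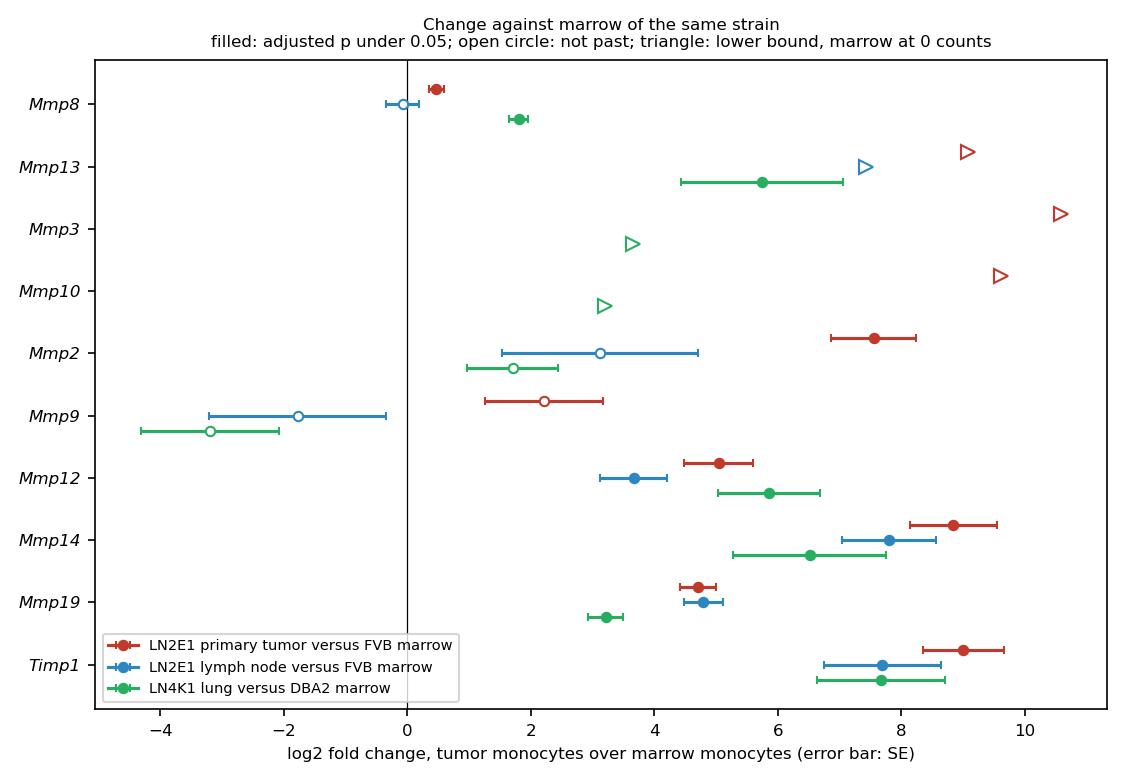
Log2 fold change of each member on the x axis, in TIMs over BM IMs of the same strain, with the SE as bars, in 3 comparisons told apart by color. Filled circles had an adjusted p under 0.05, open circles did not, and triangles are lower bounds where marrow was at 0 counts. Mmp14, Timp1, Mmp19 and Mmp12 lie far to the right in all 3 comparisons, Mmp9 is open throughout, and Mmp8 is closest to 0 among the filled circles.

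The comparison of the LN2E1 sites set TIMs of lymph node metastases against those of lung primary tumors in the same strain. Metastasis against primary tumor and lymph node against lung cannot be told apart in it. There 7 of the 10 members fell, namely Mmp2, Mmp3, Mmp10, Mmp12, Mmp13, Mmp14 and Timp1, where 5.55% of 13488 genes fell. All LN libraries lay below all primary tumor libraries for 7 members, the 6 of these other than Mmp12 and Mmp9 (8.84% of genes). Mmp8 (-0.56, SE 0.22, adjusted p = 0.139), Mmp9 (-4.01, SE 1.32, adjusted p = 0.0739) and Mmp19 did not pass (edgeR). Outside the stromelysins, which came close to 0 in the lymph node, the drop of those that fell was smallest for Mmp14 and largest for Mmp2.

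The change from marrow was also compared between the LN2E1 primary tumor and the LN4K1 lung in 1 fit of 4 groups, as the change in the first minus the change in the second. It passed for 5 of the 8 members for which it could be estimated, where 26.5% of 15182 genes passed. The difference was 5.87 for Mmp2 (SE 0.92, adjusted p = 0.000662), 5.42 for Mmp9 (SE 1.56, adjusted p = 0.019) and 1.51 for Mmp19 (SE 0.36, adjusted p = 0.00682), and it was -1.31 for Mmp8 (SE 0.19, adjusted p = 0.000372, edgeR), which rose more in the LN4K1 lung. For Mmp13 it was 7.86 (SE 1.82, adjusted p = 0.00715, edgeR), a size that depends on the constant added to the 0 counts of FVB marrow. The interaction was not past the threshold for Mmp14 (2.35, SE 1.18, adjusted p = 0.153), Timp1 (1.34, SE 1.23, adjusted p = 0.455) and Mmp12 (-0.80, SE 0.83, adjusted p = 0.517, edgeR). Mmp3 and Mmp10 could not be estimated, since both marrows were at 0. The call for Mmp9 was lost without FVB BM replicate 1 (adjusted p = 0.0631), FVB BM replicate 2 (0.0566) or DBA2 BM replicate 1 (0.0548).

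Macrophages and dendritic cells are further sources of metalloproteinases that could share the gate. The 8 macrophage markers, among them C1qa, Apoe and Trem2, summed to 1235 to 1387 CPM in FVB BM IMs, 754 to 1904 in DBA2 BM IMs, 2204 to 2886 in primary tumor TIMs, 2227 to 3613 in LN TIMs and 3664 to 5307 in LN4K1 lung TIMs. Most of the sum was Apoe, at a median of 4612 CPM in LN4K1 lung TIMs. Of these 8, 3 rose in primary tumor TIMs (Apoe, Mertk and Gpnmb), 1 in LN TIMs (Apoe) and 2 in LN4K1 lung TIMs (Apoe and Gpnmb), where C1qc fell. Gpnmb was at 0 in DBA2 BM IMs, and Adgre1, also on the list, had no row under that symbol in the count table. The 7 dendritic cell markers summed to 192 to 248 CPM in marrow and 2296 to 3841 in primary tumor TIMs. They summed to 3362 to 5259.5 CPM in LN TIMs and 1064 to 2295 in LN4K1 lung TIMs, and 6, 5 and 3 of 7 rose. Most of the sum in TIMs was H2-Ab1, at medians of 2874 CPM in primary tumor, 4071 in LN and 1222 in LN4K1 lung TIMs. Zbtb46 had medians of 3.8, 1.08 and 0.87 CPM there. Cd209a had a lower median in each TIM group than in marrow of the same strain.

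The gate against Siglec-F would remove alveolar macrophages and eosinophils, and their markers were read as well. The 8 markers of alveolar macrophages summed to 122 to 154 CPM in FVB BM IMs, 34.1 to 81.3 in DBA2 BM IMs, 23.1 to 32.4 in primary tumor TIMs, 19.8 to 67.9 in LN TIMs and 3.92 to 26.5 in LN4K1 lung TIMs. Most of the marrow sum was Ear1 alone, at a median of 131 CPM in FVB and 45.5 in DBA2 BM IMs. Marco, Car4, Krt79, Fabp1 and Atp6v0d2 had medians of at most 0.614 CPM in either marrow. Krt79 was at 0 in FVB BM IMs and LN TIMs, and Marco, Car4, Krt79 and Fabp1 were at 0 in DBA2 BM IMs. Of those tested, 0 rose and 1 of 7 fell in primary tumor TIMs, 1 of 5 rose and 1 fell in LN TIMs, and 1 of 6 rose and 1 fell in LN4K1 lung TIMs. The 5 eosinophil markers summed to 431 to 1138 CPM in marrow and to 0 to 69.5 CPM in TIMs, with Prg3 and Il5ra at 0 in LN TIMs. Of these, 4, 4 and 3 of 5 fell, and Siglecf, also on the list, had no row under that symbol. Mmp12, Mmp14, Mmp19 and Timp1 thus rose in groups in which H2-Ab1, most of the dendritic cell sum, and Apoe were also higher than in marrow. Most other macrophage markers did not pass the test. The part of macrophages and dendritic cells in the levels of these members was not tested.

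**Figure D4:**
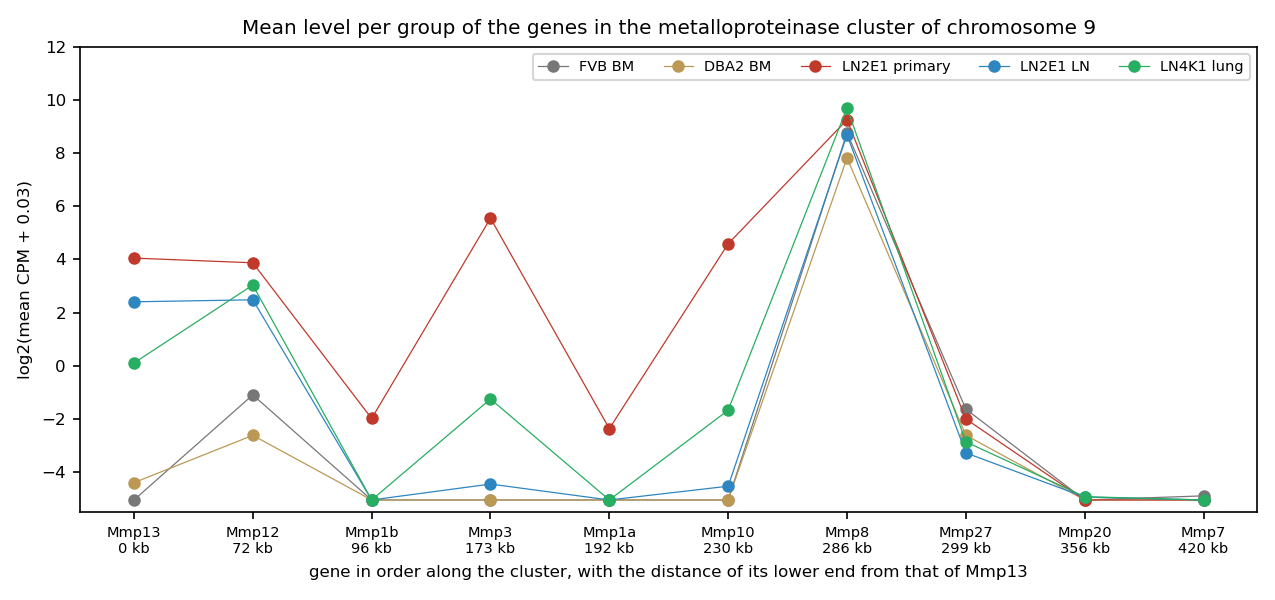
The 10 metalloproteinase genes of the chromosome 9 cluster in their order, with the distance in kb from Mmp13 on the x axis and log2 of the mean CPM plus 0.03 on the y axis, 1 line per group. Mmp8 stands high in every group, Mmp3 and Mmp10 stand out in primary tumor TIMs, and Mmp20 and Mmp7 at the far end stay near the lowest value.

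Within the chromosome 9 cluster, neighboring genes differed in pattern. Among the metalloproteinase genes, Mmp8 lay between Mmp10, with 0 counts in marrow, and Mmp27, which had 89 counts in FVB marrow over 3 libraries and 96 in primary tumor TIMs over 5. Mmp1a and Mmp1b, the interstitial collagenase genes on either side of Mmp3, had counts in primary tumor TIMs only, 72 and 98 over 5 libraries, and 0 in the other 4 groups. Mmp20, the enamel metalloproteinase, had 1 count in LN TIMs, 1 in LN4K1 lung TIMs and 0 elsewhere, and Mmp7, matrilysin, had 1 count in FVB BM IMs and 0 elsewhere.

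Of the 14 other metalloproteinase genes of the family, 9 could be tested in primary tumor TIMs, where 6 rose and 1 fell. Over all genes tested there, 33.3% rose. The median log2 change of the 9 was 2.93 against 0.08 over all genes (2.44 with Mmp1a and Mmp1b, at 0 in marrow, set to their lower bounds). Mmp1a, Mmp1b, Mmp11 and Mmp23 entered the test through the primary tumor libraries, with FVB marrow means of 0 to 0.0953 CPM. They could hardly have fallen, so the count and the median lean towards a rise. In LN TIMs 1 of 5 rose and 1 fell (median 0.15), where 20.2% of all genes rose. In LN4K1 lung TIMs 0 of 6 rose and 1 fell (median 0.24), where 13.9% rose. Against primary tumor TIMs, 3 of 7 fell in LN TIMs (Mmp11, Mmp16 and Mmp23), where 5.55% of all genes fell. Their means in LN TIMs were at most 0.0715 CPM. Mmp28, epilysin, was the gene that fell against marrow each time, by 3.51, 3.82 and 2.80 on the log2 scale (adjusted p = 0.000181, 0.0007 and 2e-05, edgeR). It falls outside the rule for named genes and was chosen after its values were seen. The 14 genes together summed to 3.59 to 27.4 CPM per library.

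Of the 5 other inhibitors (Timp2, Timp3, Timp4, Reck and A2m), 1 of 3 tested rose in primary tumor TIMs, 1 of 3 in LN TIMs and 2 of 3 in LN4K1 lung TIMs, and none fell, with median log2 changes of 1.70, -0.52 and 2.94. Timp2, which binds MMP2 and MMP14, had a mean of 34.3 CPM in FVB BM IMs, 113 in primary tumor TIMs, 58.8 in LN TIMs, 4.86 in DBA2 BM IMs and 39.4 in LN4K1 lung TIMs. It rose by log2 fold changes of 0.78 in LN TIMs (SE 0.27, adjusted p = 0.0428) and 2.94 in LN4K1 lung TIMs (SE 0.59, adjusted p = 0.00584, edgeR). In primary tumor TIMs, with libraries from 12.9 to 170 CPM, its log2 fold change was 1.70 and did not pass (SE 0.67, adjusted p = 0.0503, edgeR). In marrow, where Timp1 was near the floor, Timp2 was lower in DBA2, with a log2 difference of -2.79 from FVB (SE 0.41, adjusted p = 0.00301, edgeR).

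Among 15 activators and binding partners, 10 of 13 tested rose and 1 fell in primary tumor TIMs, 6 of 10 rose and 2 fell in LN TIMs, and 7 of 12 rose in LN4K1 lung TIMs, with median log2 changes of 1.65, 1.07 and 1.08. Furin, the convertase that activates pro-MMP14, rose by log2 fold changes of 3.03 (SE 0.30, adjusted p = 2.82e-05), 2.21 (SE 0.32, adjusted p = 0.000513) and 1.24 (SE 0.20, adjusted p = 0.00152, edgeR). Lrp1, an endocytic receptor that clears metalloproteinases, rose by 2.02, 2.25 and 1.33 (adjusted p = 7.05e-06, 8.03e-05 and 0.00012, edgeR). Lcn2, which binds MMP9 and is also in the list of granule genes, fell by 1.55 in primary tumor TIMs and by 3.22 in LN TIMs (adjusted p = 0.0039 and 2.59e-05, edgeR). In LN4K1 lung TIMs the log2 fold change of Lcn2 was 0.04 and did not pass (SE 0.34, adjusted p = 0.947, edgeR). Cd63, a tetraspanin that binds TIMP1, fell by 0.90 in LN TIMs (SE 0.31, adjusted p = 0.0425) but rose by 1.52 in primary tumor TIMs (SE 0.30, adjusted p = 0.00189, edgeR).

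Of 14 adamalysins, metalloproteinases of the ADAM and ADAMTS families, 10 of 14 rose in primary tumor TIMs, 4 of 9 in LN TIMs and 1 of 10 in LN4K1 lung TIMs, and none fell (medians 2.73, 1.67 and 0.69). Adam8, a sheddase of myeloid cells, had a mean of 17.7 CPM in FVB BM IMs, 785 in primary tumor TIMs, 541 in LN TIMs, 17.1 in DBA2 BM IMs and 99.7 in LN4K1 lung TIMs. It rose by log2 fold changes of 5.45 (SE 0.33), 4.93 (SE 0.32) and 2.46 (SE 0.46), at adjusted p = 1.25e-06, 2.98e-06 and 0.0039 (edgeR). Adam9 rose by 2.61 in primary tumor TIMs and by 2.53 in LN TIMs (adjusted p = 5.84e-07 and 1.69e-05, edgeR). Its value in LN4K1 lung TIMs was 1.09 and did not pass (SE 0.39, adjusted p = 0.0696, edgeR).

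For the 6 members with a mean log2 CPM above 1, the genes most like them across the 21 libraries were read from Pearson's r over 8013 candidate genes. The libraries share 5 groups, so r mostly reflects the group levels and is a description. Timp1 was closest to Cxcl11 (r = 0.98) and Cxcl9 (r = 0.97), chemokines that bind CXCR3. Mmp14 was closest to F11r (0.98), a junctional adhesion molecule, and Lmna (0.98), lamin A/C. Mmp19 was closest to Gm14085 and Slc28a2, a nucleoside transporter (0.99 each), and Mmp12 to Nfil3 and Bcl3, both transcriptional regulators (0.95 each). Mmp8 was closest to St7 (0.89) and Tnfsf9 (0.88), and Mmp2 to Rhbdf2 (0.85) and Golga3 (0.84).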

How the data were processed

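RNA of sorted monocytes was amplified with a SMARTer Ultra Low kit and made into libraries that carry no strand (Nextera XT). The deposited counts are whole-number counts of reads per gene, which the authors made by trimming with BBDuk, aligning to mm10 (GRCm38) with BBMap, and counting with featureCounts 1.5.2, with SAMtools 1.8 also in the submitters' processing notes. Counting settings and annotation are not given in the sources used here. Every column of counts was matched to a sample.

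The members, lists and tests were chosen with earlier results of these data known. Each comparison used its own libraries in edgeR 4.0.16 (R 4.3.3): TMM factors, filterByExpr defaults, robust quasi-likelihood test and Benjamini-Hochberg adjustment over all genes tested. The study used DESeq2, run here (1.42.0) as an alternative. Levels are CPM over TMM-scaled totals, with a prior count of 2 for log2 CPM. The floor was 3 counts per library. Named were all 10 members, and per list and comparison with marrow up to 2 genes in each direction with the largest change among those at an adjusted p under 0.05 and a mean log2 CPM above 3. The genes most like a member had a mean log2 CPM above 3. Gene positions and exon lengths come from GENCODE (GRCm38). No 2 libraries of a group agreed within sampling noise (36 pairs compared, smallest chi-square per gene 43.6). The scripts were tested on simulated data. Other settings, leave-one-out fits included, are in the closing section.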

Additional observations from a re-analysis of the deposited data

Results flagged for a closer look

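Of 30 sets of member and tumor group, 3 had a library far from the others by Dixon's criterion for 5 libraries, which chance meets in about 1 of 20 sets. For Mmp2, LN replicate 1 was at 0 CPM while the others were at 1.12 to 5.17 CPM (ratio of gap to range 0.722). That library also had the fewest genes with at least 10 counts (11047). For Mmp9, primary tumor replicate 4 was at 68.5 CPM while the others were at 5.37 to 9.99 CPM (0.756), and mature neutrophil markers were also highest there, at 1537 CPM against 628 to 941 CPM, and their part in it was not tested. For Mmp14, LN replicate 3 was at 47.9 CPM while the others were at 67.3 to 75.1 CPM (0.754).

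The change from marrow differed between the LN2E1 primary tumor and the LN4K1 lung for 5 members by a test of the difference (edgeR quasi-likelihood interaction, adjusted over all genes). On the log2 scale the primary tumor change was larger by 5.87 for Mmp2, by 5.42 for Mmp9, by 7.86 for Mmp13 and by 1.51 for Mmp19, and for Mmp8 the difference was -1.31. Every one of these compares 2 strains, 2 tumor lines and 2 routes at once, which cannot be told apart. The Mmp13 value rests on a marrow at 0 counts, so its size depends on the constant added to counts. Fibroblast markers stood at 383 to 1140.3 CPM in the primary tumor libraries and at 1.81 to 43.3 CPM in the LN4K1 lung libraries. Their part in the Mmp2 and Mmp13 differences was not tested.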

How the results depend on the processing

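Of the single-gene values under other settings, 749 kept their direction and side of the threshold, 22 passed anew, 19 no longer passed and 8 changed sign, none of which passed. Those 8 were Mmp8 in LN TIMs against FVB marrow without LN replicate 3 (0.086, range over left-out libraries -0.28 to 0.086), Mmp19 between LN and primary tumor TIMs without primary tumor replicate 1 (-0.028), primary tumor replicate 5 (-0.012) or LN replicate 4 (-0.056, range -0.056 to 0.27), Mmp14 between the marrows without FVB replicate 3 (1.16), DBA2 replicate 2 (0.36) or DBA2 replicate 3 (0.35, range -7.84 to 1.16), and the Mmp14 interaction without DBA2 replicate 1 (-5.18, range -5.18 to 3.81). Requiring 10 counts in every library removed members from testing, so that 4 passed in primary tumor TIMs (3 DEGs), 2 in LN TIMs, 2 in LN4K1 lung TIMs, 4 between LN and primary tumor (0 DEGs) and 3 in the interaction. With all 5 groups in 1 fit, the DEGs were 4 in LN TIMs, 6 in LN4K1 lung TIMs and 0 between LN and primary tumor. With DESeq2, shrunken or not, they were 5, 5 and 5. The cause was not tested.

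Leaving out 1 library at a time, 9 to 10 members passed in primary tumor TIMs (3 to 7 DEGs), 5 to 6 in LN TIMs (1 to 3), 6 to 9 in LN4K1 lung TIMs (0 to 2), 6 to 8 between LN and primary tumor (0 to 1), 1 to 1 between the marrows (0 to 0) and 3 to 6 in the interaction (3 without DBA2 replicate 1). The count of DEGs in LN TIMs was 1 without FVB replicate 1 or LN replicate 2, 3, 4 or 5. In LN4K1 lung TIMs it was 0 without DBA2 replicate 3, lung replicate 1 or lung replicate 2, and 1 without DBA2 replicate 1 or 2 or lung replicate 4 or 5. Between LN and primary tumor TIMs it was 1 without primary tumor replicate 3 or LN replicate 1 or 2, and 0 without any of the others.

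The groups share replicate numbers, but samples of the same number did not deviate together (correlations of -0.24 to 0.23, not all above 0.1 in any comparison). This cannot settle whether libraries of 1 number share an animal. LN replicates 1 and 3 matched best with the same numbers of FVB marrow (0.17 and 0.23), which came from other, healthy mice. The main fits treated the libraries as unpaired. A fit with the replicate number as a block left 0 DEGs in each of the 4 comparisons of TIMs, where 9 members (primary tumor), 5 (LN), 5 (LN4K1 lung) and 5 (LN against primary tumor) passed an adjusted p of 0.05.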
